A study of Mus musculus with 8 samples.

Results

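The Hox genes were followed through the epididymal fat of 8 male mice. Hox genes lie in 4 clusters, Hoxa on mouse chromosome 6, Hoxb on 11, Hoxc on 15 and Hoxd on 2. The members were all probe sets of the array whose annotation gives a single gene symbol made of Hoxa, Hoxb, Hoxc or Hoxd and a number. There were 48 such probe sets among 45101. They stood for 33 genes, among 18194 genes with a probe set of their own on the array and 39 Hox genes in the RefSeq gene table. Hoxa held 16 probe sets for 9 genes, Hoxb 11 for 9, Hoxc 11 for 7 and Hoxd 10 for 8. The other Hox genes were not analysed here, and 3 Hox probe sets with several symbols were left out.

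All mice were C57BL/6J males, with no engineered allele named, 6 weeks old when the diets began. The 4 groups held 2 mice each, with 1 array per mouse. Chow mice ate food with 10% of calories from fat, and the high-fat diet (HFD) had 30%, for 24 weeks. HFD mice were then allocated at random to telmisartan, candesartan or no drug for 5 more weeks while the HFD went on. Whether the chow mice were also kept for those 5 weeks is not given in the sources used here, so in every comparison with chow the diet cannot be told apart from a possible difference in age. The drugs were dissolved in drinking water at about 3 mg/kg/day, and both block the receptor of angiotensin II. The study's title names insulin resistance and fat tissue macrophages as its interest; what the diet and the drugs did to Hox transcripts is asked here of the same arrays. The epididymal pad is a visceral fat depot beside the testis, and the RNA came from the whole pad.

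Hox genes encode homeodomain transcription factors that give cells their position along the body axis in the embryo. Within a cluster, genes of low number are active towards the head and genes of high number towards the tail, and genes of the same number in different clusters are called paralogs. Adult fat keeps part of this pattern: depots from different parts of the body express different Hox genes, mostly in adipocytes and their stromal precursors, so that Hox genes are used as markers of depot identity.

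The Hox genes with bright probe sets lay in the head-side and middle parts of the clusters. A probe set was tested if its mean log2 signal reached the median of all probe sets, a signal of 40.5. This held for 17 of the 48 members (35.4%), which stood for 13 genes: Hoxa5, Hoxb2, Hoxb3, Hoxb4, Hoxb5, Hoxb6, Hoxc4, Hoxc5, Hoxc6, Hoxc8, Hoxc9, Hoxd8 and Hoxd9. By cluster, 2 of 16 Hoxa, 5 of 11 Hoxb, 7 of 11 Hoxc and 3 of 10 Hoxd probe sets passed. Paralogs 1 to 9 supplied all of them (17 of 36 probe sets). Of the 12 probe sets for paralogs 10 to 13, which pattern the lumbar to caudal region and the limbs, 0 passed, and the highest signal of any of them on any array was 26.0.

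Of the 31 dimmer members, 4 lay at the lowest value allowed (a floor of 6.69) on all 8 arrays. They were Hoxc13, Hoxd10, Hoxd12 and 1 of the 2 probe sets of Hoxd13. The passing member closest to the limit was Hoxb4 1460379_at, with a mean log2 signal of 5.83 against the limit of 5.34. The nearest members below it were Hoxa7 1449499_at (5.27), Hoxb4 1451761_at (5.16) and Hoxb3 1427605_at (5.07). All 17 members also passed on the mean of the 6 high-fat arrays alone, so their passing did not rest on the chow arrays; on the 2 chow arrays alone 24 members would have passed. Probe sets differ in how well they bind, so a brighter probe set is not taken as a more abundant transcript.

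**Figure D1:**
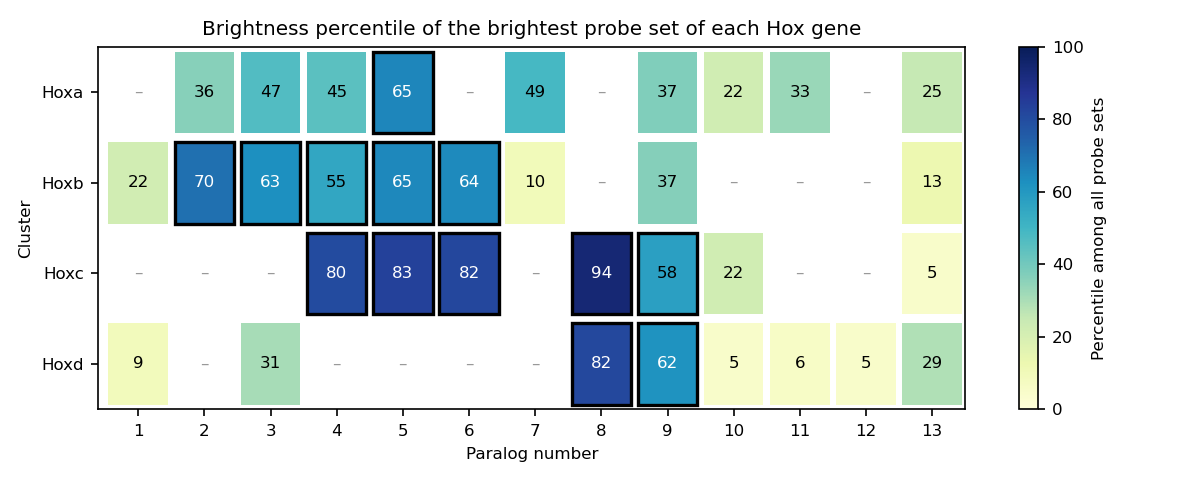
Brightness of each Hox gene on the arrays: columns are paralog numbers, rows are the 4 clusters, and each cell gives the percentile of the gene's brightest probe set among all probe sets, averaged over 8 arrays. A dash marks a cell with no member, a black frame marks the 13 genes past the filter at the 50th percentile, and no frame appears at paralogs 10 to 13.

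The start regions of 5 of the 13 genes were in the RefSeq promoter table (build GRCm38.p6). All 5 are shown, and they were not chosen by their values. They span all 4 clusters. Among them, Hoxd9 had the smallest p of the family after HFD, Hoxc4 fell with telmisartan against chow, and Hoxd8 differed least with HFD. Each is the 250 bases before the annotated start, 5′ to 3′ on the gene's strand. The windows are chr6:52204588-52204837 (minus strand) for Hoxa5, chr11:96318017-96318266 (plus strand) for Hoxb4 and chr15:103034145-103034394 (plus strand) for Hoxc4. Hoxd8 is at chr2:74704365-74704614 and Hoxd9 at chr2:74697513-74697762, both on the plus strand. Capitals mark a CCAAT box on either strand, which reads ATTGG on the other strand.
Hoxa5: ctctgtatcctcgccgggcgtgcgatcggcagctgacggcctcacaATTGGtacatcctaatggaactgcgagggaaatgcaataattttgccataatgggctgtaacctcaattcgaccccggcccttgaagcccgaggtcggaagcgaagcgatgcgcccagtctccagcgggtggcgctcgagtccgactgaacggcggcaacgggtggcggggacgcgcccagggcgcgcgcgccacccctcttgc
Hoxb4: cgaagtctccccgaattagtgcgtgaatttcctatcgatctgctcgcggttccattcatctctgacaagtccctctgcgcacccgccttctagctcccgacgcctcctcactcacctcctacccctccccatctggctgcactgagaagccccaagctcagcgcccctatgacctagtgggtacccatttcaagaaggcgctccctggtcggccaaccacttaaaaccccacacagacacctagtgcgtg
Hoxc4: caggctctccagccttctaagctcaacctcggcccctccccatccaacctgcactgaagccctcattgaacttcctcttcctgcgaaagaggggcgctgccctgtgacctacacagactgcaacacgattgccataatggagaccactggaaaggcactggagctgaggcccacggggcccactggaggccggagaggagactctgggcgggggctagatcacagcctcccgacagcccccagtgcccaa
Hoxd8: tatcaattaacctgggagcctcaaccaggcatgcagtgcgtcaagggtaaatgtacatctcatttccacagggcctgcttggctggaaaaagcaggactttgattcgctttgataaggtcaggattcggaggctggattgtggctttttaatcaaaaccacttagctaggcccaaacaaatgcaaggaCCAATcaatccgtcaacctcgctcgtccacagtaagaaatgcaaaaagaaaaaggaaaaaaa
Hoxd9: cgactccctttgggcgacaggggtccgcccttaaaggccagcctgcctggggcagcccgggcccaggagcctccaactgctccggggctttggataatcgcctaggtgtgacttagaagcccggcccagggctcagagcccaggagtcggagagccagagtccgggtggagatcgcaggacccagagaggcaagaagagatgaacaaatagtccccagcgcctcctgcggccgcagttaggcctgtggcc
The 2 windows with a CCAAT box were those of Hoxa5 and Hoxd8. The letters CCAAT, searched on both strands, were present in 14 of the 24 Hox windows of the table (58.3%) and in 33.8% of all 32851 windows. Here and below, all windows are those of the table without a chromosome that holds no Hox cluster. The other motifs searched on both strands were absent from the 5 windows. They were TATAAA (the TATA box, 16.7% of Hox windows and 12.4% of all), TGATNNAT (a HOX-PBX site, 16.7% and 7.68%) and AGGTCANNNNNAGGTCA (a retinoic acid response element, 0% and 0.00913%). Hox windows had a median GC content of 58.6%, against 52.4% for all windows. Their median ratio of observed to expected CpG was 0.721, against 0.373. These matches are descriptions of letters and show no binding.

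HFD was first set against chow, to see how Hox transcripts differed with diet. Every Hox probe set past the filter had a lower mean with HFD than with chow, and none of them passed the test on its own. The differences ran from −1.37 for Hoxd9 to −0.17 for Hoxd8 on the log2 scale. limma called 0 of the 17, against 4.88% of all 22519 probe sets tested (1.52% as lower and 3.36% as higher). At an unadjusted p under 0.05, 10 of the 17 were lower and 0 higher, against 9.81% and 10.5% of all probe sets. The log2 difference was below 0 for 17 of 17, against 47.9% of all. Both HFD arrays lay below both chow arrays for 14 of 17 (26.6% of all), and above them for 0 (29.0% of all). The median difference over the 17 was −0.65, and over all probe sets 0.02. Since these members share cluster, tissue and arrays, they are not independent of each other.

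In the Hoxa cluster, Hoxa5 was the 1 gene bright enough, with 2 probe sets. Hoxa5 is needed for the airways and the cervicothoracic skeleton. Probe set 1443803_x_at read 187 and 145 on the chow arrays, 102 and 108 with HFD, 109 and 77.6 with telmisartan, and 113 and 89.4 with candesartan. The second probe set, 1448926_at, read 158 and 129 with chow, 81.5 and 95.8 with HFD, 40.6 and 84.6 with telmisartan, and 76.2 and 84.8 with candesartan. On both, all 6 high-fat arrays lay below both chow arrays. The HFD difference was −0.65 (95% CI −1.22 to −0.08, limma adjusted p 0.19) and −0.69 (−1.47 to 0.09, adjusted p 0.306). The suffix _x_at marks a probe set some of whose probes can bind other transcripts.

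In the Hoxb cluster, Hoxb2 and Hoxb5 were lower on all 6 high-fat arrays. Hoxb2, a hindbrain patterning gene, read 224 and 211 with chow, 153 and 153 with HFD, 139 and 127 with telmisartan, and 147 and 152 with candesartan. Its HFD difference was −0.50 (−0.89 to −0.12, limma adjusted p 0.132), the narrowest interval of the family. Hoxb5, which acts in the enteric nervous system and blood stem cells, read 151 and 134 with chow, 99.7 and 85.6 with HFD, 122 and 103 with telmisartan, and 113 and 89.8 with candesartan. Its HFD difference was −0.62 (−1.12 to −0.12, adjusted p 0.159).

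Hoxb6, a gene of the trunk and limb mesoderm, had the largest Hoxb difference and a wide spread between the chow arrays. It read 239 and 119.5 with chow, 57.5 and 77.5 with HFD, 131 and 77.3 with telmisartan, and 125 and 92.4 with candesartan. Its HFD difference was −1.34 (−2.23 to −0.45, limma adjusted p 0.0948). Hoxb3 and Hoxb4, of which Hoxb4 is known for expanding blood stem cells, overlapped between chow and HFD. Hoxb3 1456229_at read 148 and 121 with chow, 122 and 82.8 with HFD, 55.3 and 78.7 with telmisartan, and 71.3 and 126 with candesartan, with an HFD difference of −0.41 (−1.19 to 0.37). Hoxb4 1460379_at read 90.2 and 61.8 with chow, 53.2 and 62.6 with HFD, 65.4 and 25.4 with telmisartan, and 76.1 and 46.1 with candesartan, with an HFD difference of −0.37 (−1.45 to 0.71). Their intervals hold 0 and also falls of the size seen for Hoxb2.

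The Hoxc cluster held the most tested members, 7 probe sets of 5 genes. Its middle genes pattern the thorax. Hoxc4 read 435 and 623 with chow, 309 and 305 with HFD, 268 and 184 with telmisartan, and 368 and 226 with candesartan. All 6 high-fat arrays were below both chow arrays, and the HFD difference was −0.76 (−1.41 to −0.11, limma adjusted p 0.177).

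Hoxc5 had the largest difference of the cluster. Its probe set 1439885_at read 798 and 687 with chow, 325 and 268 with HFD, 468 and 196 with telmisartan, and 498 and 285 with candesartan. The HFD difference was −1.33 (−2.23 to −0.43, limma adjusted p 0.101). With means taken on the log2 scale, chow stood at 2.51 times HFD. Probe set 1450832_at of the same gene read 142 and 162 with chow, 93.4 and 80.3 with HFD, 112 and 62.9 with telmisartan, and 140 and 64.2 with candesartan. Both probe sets placed all 6 high-fat arrays below chow, and the second had an HFD difference of −0.80 (−1.71 to 0.10, adjusted p 0.302).

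The 2 probe sets of Hoxc6 disagreed in size. On 1427362_x_at the chow arrays read 488 and 489, HFD 275 and 282, telmisartan 396 and 332, and candesartan 394 and 244. This gave an HFD difference of −0.81 (−1.32 to −0.30, limma adjusted p 0.0818). On 1427361_at the chow arrays read 380 and 325 and overlapped with HFD at 261 and 364, telmisartan at 348 and 329, and candesartan at 352 and 211. There the HFD difference was −0.19 (−0.78 to 0.41, adjusted p 0.744). Another probe set of Hoxc6, 1427454_at, was too dim for this fit. It read 10.6 and 16.0 with chow, 28.7 and 6.69 with HFD, 59.3 and 9.85 with telmisartan, and 28.4 and 30.0 with candesartan. Without the filter its HFD difference was 0.09 (−2.71 to 2.89). Which of these probe sets reads the transcript best was not tested.

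Hoxc8, whose product restrains the brown fat programme, had the brightest probe set. It read 1470.5 and 2003 with chow, 1127 and 1095 with HFD, 1239.5 and 821 with telmisartan, and 1482.5 and 989 with candesartan, so that candesartan array 1 reached the lower chow array. Its HFD difference was −0.63 (−1.21 to −0.05, limma adjusted p 0.21). Hoxc9, a thoracic gene, read 89.9 and 111 with chow, 32.4 and 65.9 with HFD, 49.0 and 83.8 with telmisartan, and 90.7 and 58.4 with candesartan. Its HFD difference was −1.11 (−2.08 to −0.15, adjusted p 0.184), with the HFD arrays 1.02 apart on the log2 scale.

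In the Hoxd cluster the 2 tested genes lay at opposite ends of the family's range. Hoxd9, which acts with Hoxa9 in the upper forelimb, read 118 and 199.6 with chow, 48.6 and 72.9 with HFD, 102 and 69.5 with telmisartan, and 79.6 and 98.7 with candesartan. All 6 high-fat arrays lay below both chow arrays. The HFD difference was −1.37 (−2.15 to −0.58, limma p 0.00362, adjusted p 0.0612). With means taken on the log2 scale, chow stood at 2.58 times HFD.

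Hoxd8 was nearly level between chow and HFD. Its probe set 1431099_at read 426 and 371 with chow, 353 and 354 with HFD, 374 and 272 with telmisartan, and 339 and 294 with candesartan. Probe set 1433638_s_at read 254 and 268 with chow, 246 and 216 with HFD, 261 and 165 with telmisartan, and 197 and 195 with candesartan. The HFD differences were −0.17 (−0.60 to 0.26) and −0.18 (−0.69 to 0.34), with limma adjusted p 0.678 and 0.719. Falls of up to 0.60 and 0.69 on the log2 scale thus lie within the intervals.

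**Figure D2:**
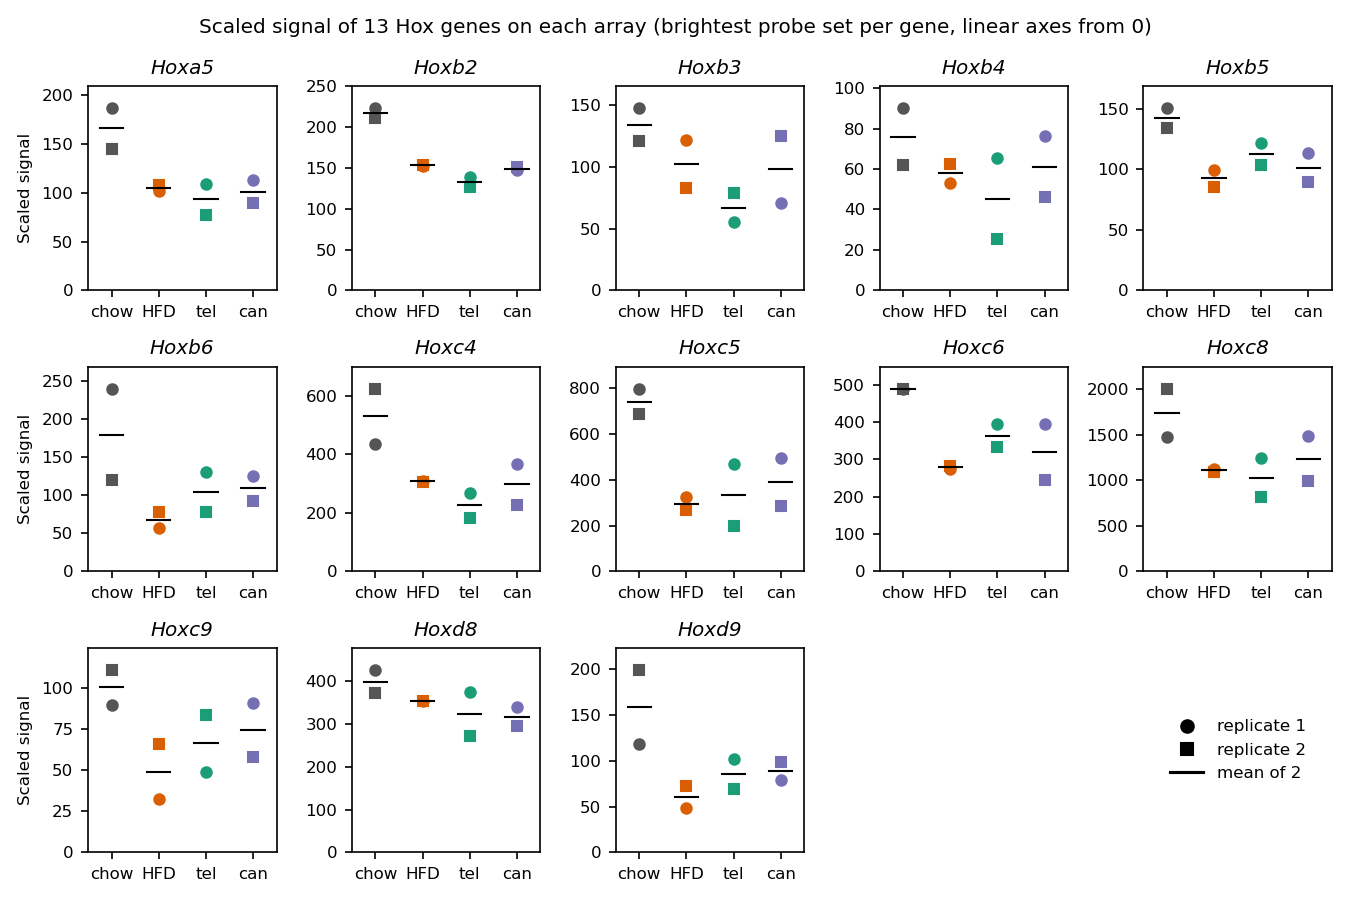
Scaled signal (linear axes from 0) of the 13 Hox genes past the filter on each of 8 arrays, with the brightest probe set of each gene; circles are replicate 1, squares replicate 2, lines the mean of 2, and tel and can are HFD with telmisartan and with candesartan. The chow pair is above both HFD arrays in 11 of the 13 panels, all but Hoxb3 and Hoxb4.

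Compared by cluster, the median HFD difference was −0.67 for Hoxa (2 probe sets), −0.50 for Hoxb (5), −0.80 for Hoxc (7) and −0.18 for Hoxd (3). The Hoxd median is that of Hoxd8, which supplied 2 of its 3 probe sets, while the Hoxd9 value was the largest of the family. In each cluster all tested probe sets were below 0. The difference between clusters was not tested, since 2 to 7 probe sets of 1 to 5 genes share each cluster.

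With single arrays left out, the count of Hox probe sets called lower in HFD against chow went from 0 to 4 without telmisartan array 1, and likewise without telmisartan array 2. In the same fits 10.7% and 10.8% of all probe sets were called, against 4.88% with every array. The 4 were Hoxd9 (adjusted p 0.0282 and 0.0265), Hoxc6 1427362_x_at (0.0476 and 0.0461), Hoxc5 1439885_at (0.0133 and 0.0127) and Hoxb6 (0.0419 and 0.0394). The fold changes are unaffected by that step, because the telmisartan arrays enter this comparison only through the estimate of the spread.

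The 31 dimmer members were examined without the brightness filter, over all probe sets. Of these, 15 had a log2 difference below 0 in HFD against chow, 9 above 0, and 7 at 0. Of all 45037 probe sets 42.7% were below 0, and of the bright ones 47.9%. The arrays did not overlap, with HFD lower, for 5 of them (18.8% of all 45037 probe sets) and, with HFD higher, for 5 (22.3%). Those shares include the 22519 bright probe sets, where they were 26.6% and 29.0%. The shares of dim probe sets alone were thus lower than 42.7%, 18.8% and 22.3%, and were not computed. The counts of dim members are therefore not read as a result about the Hox genes. Those lower with HFD are given first. Hoxa3 1427433_s_at read 56.8 and 56.8 with chow and 20.8 to 30.2 on the 6 high-fat arrays. Hoxa9 1455626_at read 38.8 and 48.9 with chow and 6.69 to 18.8 on the 6 high-fat arrays. Hoxa7 read 79.2 and 106 with chow, 55.8 and 19.6 with HFD, 7.15 and 49.5 with telmisartan, and 37.4 and 39.8 with candesartan. Hoxc5 1456301_at read 44.1 and 54.7 with chow and 9.11 and 10.2 with HFD. It read 25.2 and 10.1 with telmisartan and 51.5 and 6.69 with candesartan. The fifth, Hoxa4 1427354_at, read 64.0 and 33.0 with chow and 10.8 and 30.3 with HFD. It read 23.4 and 26.4 with telmisartan and 29.8 and 36.8 with candesartan. None of these 5 was called (limma adjusted p 0.162 to 0.62 without the filter).

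The 5 that were higher with HFD were all dim Hoxa probe sets. Hoxa3 1431392_at read 18.1 and 9.80 with chow and 22.3 and 29.3 with HFD. Hoxa10 1431475_a_at read 6.69 and 7.24 with chow and 9.72 and 9.33 with HFD. Hoxa10 1446408_at read 6.69 and 6.69 with chow and 14.5 and 7.14 with HFD. Hoxa11 read 7.59 and 19.3 with chow and 21.6 and 26.0 with HFD, and the fifth was Hoxa3 1429398_at. All 10 were chosen after their values were seen.

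Over all 48 members without the filter, 32 differences were below 0, 9 above and 7 at 0, and the median was −0.21; 42.7% of all probe sets were below 0. The arrays did not overlap, with HFD lower, for 19 of 48 and, with HFD higher, for 5, to be read against the same shares of all probe sets. The 1 member called without the filter (0.280% of all) was Hoxa3 1429398_at, with HFD higher by 1.10 on the log2 scale (limma adjusted p 0.0331). It read 15.0 and 13.7 with HFD, 6.69 and 6.69 with chow, and 6.69 to 7.58 in the drug groups, so the difference depends on the floor. Another Hoxa3 probe set, 1452421_at, read 41.5 and 34.1 with chow and 25.8 and 48.3 with HFD. Hoxa3 overlaps the RefSeq spans of Hoxa4, Hoxa5 and Hoxa6, and which transcript each of its probe sets reads was not tested.

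The telmisartan and candesartan groups were each compared with chow, to ask whether Hox transcripts of the treated obese fat stood at chow levels. These comparisons share the chow arrays with the first one, so they are not separate evidence. With telmisartan 2 of 17 members fell: Hoxc4 by 1.23 on the log2 scale (95% CI −1.88 to −0.58, limma adjusted p 0.0432) and Hoxb2 by 0.71 (−1.09 to −0.33, adjusted p 0.0455). Of all probe sets, 5.78% were called, 2.35% as lower and 3.43% as higher. The difference was below 0 for 17 of 17 members (57.4% of all), and the arrays did not overlap, with telmisartan lower, for 12 (26.4%) and, with telmisartan higher, for 0 (20.1%). At an unadjusted p under 0.05, 8 were lower (12.8%) and 0 higher (10.2%). The median was −0.77 against −0.07 over all probe sets.

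Further members had telmisartan differences from chow that missed the threshold. Hoxa5 1448926_at was at −1.28 (limma adjusted p 0.0673), with 40.6 on telmisartan array 1 and 84.6 on array 2. Hoxc5 1439885_at was at −1.29 (adjusted p 0.0965), Hoxb3 at −1.02 (0.12) and Hoxc8 at −0.77 (0.117). Hoxc6 1427361_at was at −0.05 (−0.65 to 0.54). By cluster the medians were −1.06 for Hoxa, −0.75 for Hoxb, −0.77 for Hoxc and −0.33 for Hoxd.

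Both telmisartan calls sat near the threshold. The Hoxc4 call was lost without chow array 1 (adjusted p 0.057), chow array 2 (0.197), HFD array 1 (0.095), HFD array 2 (0.0956) or telmisartan array 2 (0.0892). The Hoxb2 call was lost without the same arrays (0.125, 0.13, 0.105, 0.106 and 0.0701) and without candesartan array 1 (0.0957) or 2 (0.0956). The count of called members was 6 without telmisartan array 1, 1 without telmisartan array 2 or either candesartan array, and 0 without any 1 of the chow and HFD arrays. Without telmisartan array 1, 2694 of the 22519 probe sets were called, and without array 2, 2045. With median centring neither gene was called (adjusted p 0.111 and 0.25) and Hoxa5 1448926_at was instead; with quantile normalization Hoxb2 was lost (0.0807) and Hoxa5 1448926_at called beside Hoxc4.

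With candesartan 0 of 17 members were called against chow, where limma called 3.96% of all probe sets (1.07% as lower and 2.89% as higher). All 17 differences were below 0 (52.6% of all), and at an unadjusted p under 0.05, 7 were lower (8.71%) and 0 higher (9.26%). The arrays did not overlap, with candesartan lower, for 11 (27.3%). The median was −0.54 against −0.02 over all probe sets. The smallest adjusted p was that of Hoxb2, at −0.54 (−0.92 to −0.16, limma adjusted p 0.128), followed by Hoxc4 at −0.85 (adjusted p 0.156). The medians by cluster were −0.77 for Hoxa, −0.50 for Hoxb, −0.66 for Hoxc and −0.41 for Hoxd. Without telmisartan array 1 the count was 2 (8.80% of all probe sets called), and without telmisartan array 2 it was 1 (8.84%).

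Centring the arrays on their medians in place of the trimmed mean changed the balance of all calls. The share of calls that were lower went from 40.7% to 13.6% for telmisartan against chow and from 26.9% to 12.8% for candesartan against chow. In the same step the median of all probe sets moved from −0.07 to 0.10 for telmisartan against chow.

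Of the 17 members, 9 had all 6 high-fat arrays below both chow arrays, against 13.7% of all probe sets. They were both probe sets of Hoxa5, Hoxb2, Hoxb5, Hoxc4, both of Hoxc5, Hoxc6 1427362_x_at and Hoxd9.

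**Figure D3:**
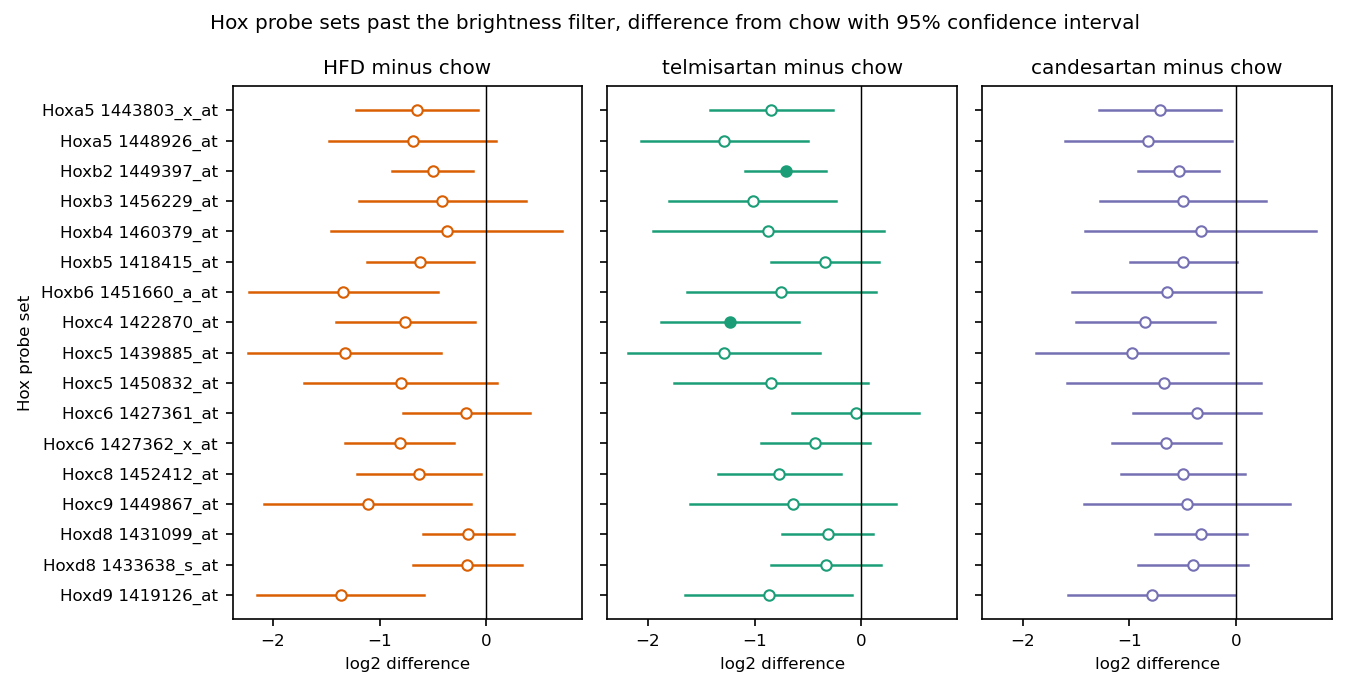
Log2 difference from chow (x axis) of the 17 Hox probe sets past the filter (y axis), with 95% confidence intervals from limma, for HFD, telmisartan and candesartan; filled points passed an adjusted p of 0.05. All points lie below 0, the intervals hold 0 for 7, 9 and 10 probe sets respectively, and the filled points are Hoxb2 and Hoxc4 with telmisartan.

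The drugs were next compared with HFD, to ask whether they moved Hox transcripts in obese fat. No Hox probe set was called with either drug, and neither was any other probe set (0% of 22519 in both comparisons). At an unadjusted p under 0.05, 1390 probe sets were lower and 428 higher with telmisartan (6.17% and 1.90%), and 316 and 102 with candesartan (1.40% and 0.453%); none of the 17 Hox members was among them. All 17 intervals held 0 in each comparison. They reached 0.65 to each side in the median.

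Against HFD, telmisartan differences ran from −0.61 to 0.59 with a median of −0.14, and 10 of 17 were below 0 (58.6% of all probe sets). The arrays did not overlap, with telmisartan lower, for 3 (24.2% of all) and, with telmisartan higher, for 2 (15.1%). Candesartan differences ran from −0.23 to 0.69 with a median of 0.04, and 8 of 17 were below 0 (54.4%). There the arrays did not overlap for 3 as lower (4513 of the 22519 probe sets, 20%) and 2 as higher (15.4%). The drug comparisons share the HFD arrays, and are given side by side.

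Hoxb6 had the largest positive values, 0.59 (−0.30 to 1.48) with telmisartan and 0.69 (−0.20 to 1.58) with candesartan. Hoxd9 stood at 0.50 (−0.29 to 1.28) and 0.57 (−0.21 to 1.36). For both genes the drug groups lay between HFD and chow on average. Hoxa5 1448926_at was at −0.59 (−1.38 to 0.19) with telmisartan and −0.14 (−0.92 to 0.65) with candesartan. Without telmisartan array 2, Hoxa5 1448926_at was called lower against HFD (−1.12, limma adjusted p 0.0435), in a fit that called 6.73% of all probe sets; the telmisartan group is then the low array alone, and its spread is assumed to be that of the other groups.

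Telmisartan and candesartan had matched doses and durations, so their groups were set against each other directly in 1 pair of compounds. limma called 0 of 17 Hox members and 0% of all probe sets; 802 probe sets were lower and 315 higher at an unadjusted p under 0.05 (3.56% and 1.40%), none of them Hox members. The arrays did not overlap, with telmisartan lower, for 1 member (18.2% of all) and, with telmisartan higher, for 0 (13.9%). The Hox differences ran from −0.54 to 0.31 with a median of −0.17, 12 of 17 were below 0 (55.8% of all), and the smallest adjusted p was 0.898. The 17 intervals spanned −1.62 to 0.91 at their extremes and all held 0. The data do not show that the drugs acted alike.

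Within the drug groups the 2 mice differed in step across many members. For telmisartan, array 1 was above array 2 for 14 of 17 members, and for candesartan for 13 of 17, against 10 for chow and 7 for HFD. In the Hoxc cluster this held for 6 of 7 with telmisartan and 7 of 7 with candesartan, with a median gap of 0.70 for candesartan. Relative to the chow mean, the median over the 17 members was 0.09 and −0.09 on the chow arrays, −0.69 and −0.65 on the HFD arrays, −0.47 and −0.78 on the telmisartan arrays, and −0.40 and −0.75 on the candesartan arrays. The chow and HFD arrays thus did not overlap, and the first arrays of both drugs lay nearest to chow without reaching it. Over all probe sets the medians of the 8 arrays lay between −0.09 and 0.03. They were −0.09 and −0.01 on the telmisartan arrays and −0.03 and −0.01 on the candesartan arrays. How many of all probe sets were higher on array 1 than on array 2 was not counted.

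The Hoxc medians per array were −0.10 and 0.10 with chow, −0.75 and −0.77 with HFD, −0.47 and −1.06 with telmisartan, and −0.21 and −1.001 with candesartan. Hoxa and Hoxb did not follow the same order everywhere: Hoxa was at −1.20 on telmisartan array 1 and −0.92 on array 2. The Hoxa value on array 1 came from 1448926_at, and the other tested members that were lower on array 1 were Hoxb3 and Hoxc9. Hoxd stayed between −0.66 and −0.09 on the high-fat arrays.

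Cell type markers were read on the same arrays, because whole fat pads hold several cell types and because a lower signal from fewer cells of a type cannot be told apart from less RNA per cell. The adipocyte list had 12 of its 14 genes on the array, all bright, with summed signals of 109800 and 124200 with chow and 104800 to 128000 on the high-fat arrays. Of its 12 genes, 2 fell with HFD, the glucose transporter Slc2a4 (−1.70) and the adipocyte regulator Pparg (−0.81), and the list's median was −0.12. Epididymis markers were dim (0 of 7 passed the filter), and 1 of 9 testis markers passed, Star, a steroidogenic gene.

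Macrophage markers moved in the opposite direction to the Hox members. Of 12 genes, 11 rose and 0 fell with HFD (median 1.40), and the summed signal went from 21220 and 23490 with chow to 52990 and 54610 with HFD. It was 46090 and 65190 with telmisartan and 50210 and 56970 with candesartan. The lower value of each drug pair was on array 1, where the Hox median was nearer to chow. The part of macrophage RNA in the Hox differences was not tested.

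Markers of adipose progenitors and stroma, cells that carry Hox expression, were mostly higher with HFD than with chow. The difference was below 0 for 2 of 12, against 47.9% of all probe sets. Of 12 genes, 1 rose with HFD (Lum, a matrix proteoglycan, by 1.21) and 0 fell, with a median of 0.23. Their summed signal was 44380 and 39580 with chow and 51420 and 50430 with HFD. Endothelial markers were lower: 3 of 10 fell with HFD, Tie1 (−0.97), Kdr (−0.72) and Esam (−0.60), with a list median of −0.59. Of the lymphocyte markers, 2 of 9 rose with HFD, Il7r (4.03) and Cd22 (2.69). What share of the Hox signal came from each of these cell types was not tested.

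Mesothelial markers, from the layer that covers the pad, differed between mice of 1 group. Their summed signal was 935 on telmisartan array 1 and 3137 on array 2, 2221 and 4122 with candesartan, 3357 and 4455 with chow, and 3112 and 4146 with HFD. None of the 10 rose or fell with HFD (median −0.08). Telmisartan array 1, with the lowest mesothelial signal, was the array on which 2 of the 17 tested members, Hoxa5 1448926_at and Hoxb3, were lowest, while 14 of 17 were higher there than on telmisartan array 2. Whether these Hox values come from the amount of mesothelium sampled was not tested.

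**Figure D4:**
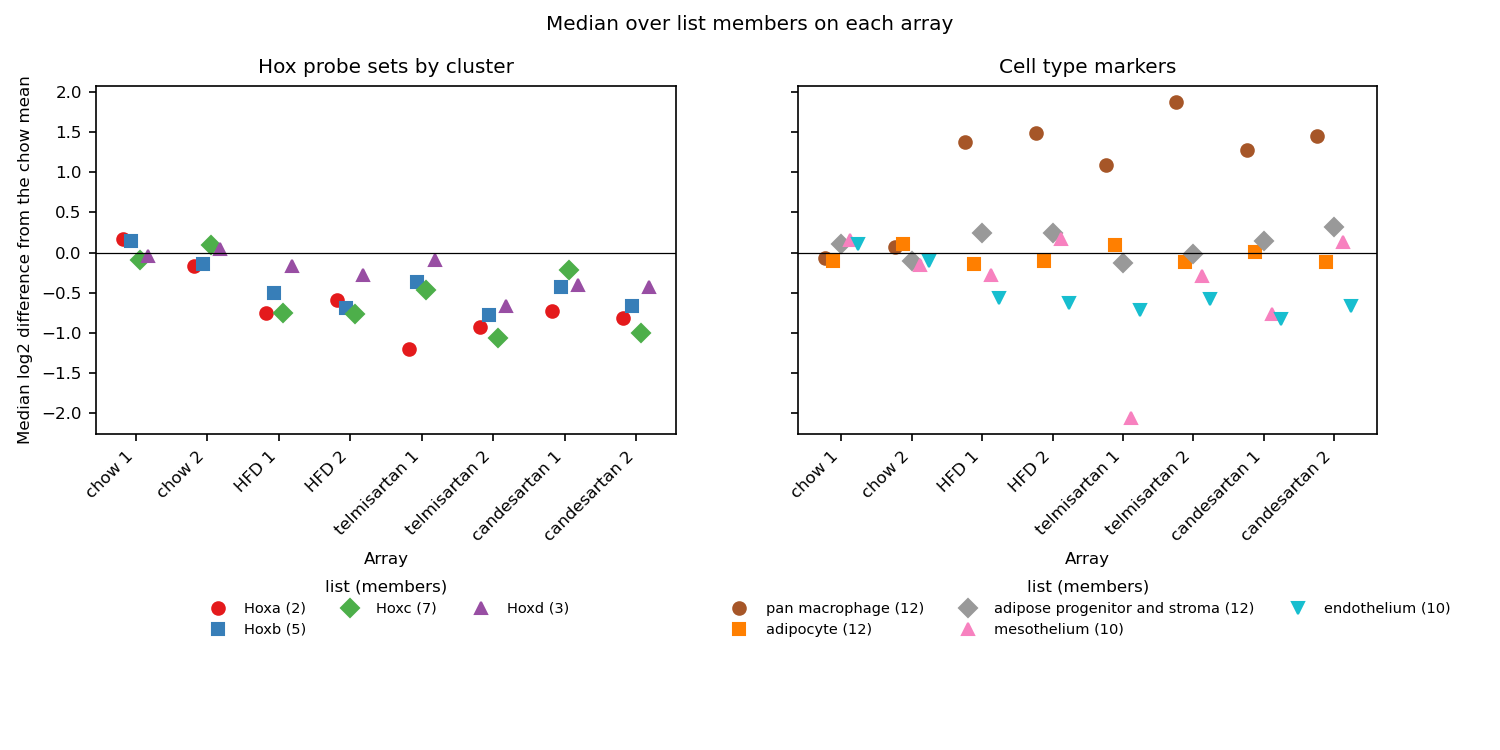
Median log2 difference from the chow mean (y axis) on each of 8 arrays (x axis) for the Hox probe sets of each cluster (left) and for 5 lists of cell type markers (right); numbers in the keys are members. The Hox medians of the 6 high-fat arrays all lie below 0, macrophage medians lie between 1.09 and 1.88 there, and the mesothelial median of telmisartan array 1 is −2.06.

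HOX proteins bind DNA with cofactors of the TALE class, and their genes are kept silent by Polycomb proteins, kept active by Trithorax proteins and switched on by retinoic acid in the embryo. Lists of these regulators were tested in the same fit. None of the 7 TALE cofactor genes tested was called in HFD against chow (median −0.11); the smallest p was that of Pbx2 (−0.27, limma adjusted p 0.36), followed by Meis1 (−0.56, 0.375) and Pbx3 (−0.29, 0.545). None of the 17 Polycomb genes was called (median −0.07), with Cbx6 at −0.54 (adjusted p 0.121), Rbbp4 at −0.40 (0.125) and Phc1 at −0.76 (0.166). Cbx6, a chromodomain subunit that reads the Polycomb mark, fell by 0.71 with telmisartan against chow (adjusted p 0.0498), the 1 Polycomb gene to do so.

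None of the 10 Trithorax and H3K27 demethylase genes was called with HFD (median 0.06). Men1, whose product menin recruits a Trithorax-type methylase to Hox genes, was at −0.43 (limma adjusted p 0.231), Kdm6b at −0.26 (0.42) and Dpy30 at −0.28 (0.459). Of 12 retinoic acid genes, 0 were called with HFD (median 0.02). Rbp4, the retinol carrier secreted by fat, was at −0.79 (adjusted p 0.0653), the retinaldehyde reductase Dhrs3 at 0.44 (0.1) and the receptor Rxra at −0.62 (0.147). Dhrs3 rose by 0.60 with candesartan against chow (adjusted p 0.0433).

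Genes next to the clusters did not share the direction of the Hox members. Of 14 flanking genes tested, 2 rose with HFD, Skap2 by 0.76 (limma adjusted p 0.0286) and Snx10 by 0.68 (adjusted p 0.0266), and 0 fell; the median was 0.05. Both lie beside the Hoxa cluster, and Skap2 encodes an adaptor of myeloid cells. Hibadh, a valine breakdown enzyme on the other side of Hoxa, was at −0.53 (adjusted p 0.0707). Antisense transcripts within the clusters could be read for 2 genes. Hoxb5os, which overlaps Hoxb5 and Hoxb6, read 51.0 and 48.4 with chow and 58.7 and 56.2 with HFD (0.21, −0.61 to 1.03). Hoxd3os1, which overlaps Hoxd3, read 296 and 259 with chow and 220 and 228 with HFD (−0.31, −0.90 to 0.29). The ParaHox genes, a sister group of homeobox genes in the gut and pancreas, were all too dim (0 of 6 passed).

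Other genes that mark visceral fat were read in the same fit. Of 7 tested, 1 fell with HFD, Thbd, which encodes thrombomodulin of vessel lining and mesothelium, by 1.32 (limma adjusted p 0.0337), and 0 rose. Tcf21, a transcription factor of visceral fat precursors, was at −0.62 (adjusted p 0.0746) and Gpc4, a proteoglycan, at −0.50 (0.0911). The median of the list was −0.57 with HFD, −1.15 with telmisartan and −0.75 with candesartan, each against the same chow arrays. In both drug groups Thbd, Tcf21 and Gata6, a mesodermal transcription factor, fell against chow. The falls were 1.63, 0.92 and 1.16 with telmisartan (adjusted p 0.0147, 0.0185 and 0.0176) and 1.30, 0.75 and 1.04 with candesartan (0.0403, 0.0462 and 0.0331). Wt1, which marks mesothelium and visceral precursors, was at 0.09 with HFD (adjusted p 0.921).

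Of 8 genes that mark subcutaneous fat, 5 were too dim to test: Tbx15, Shox2, En1, Sim1 and Tbx5. The 3 tested genes were not called with HFD. Twist2 was at −0.38 (limma adjusted p 0.342), Sfrp2 at 0.27 (0.705) and Twist1 at −0.15 (0.771). Hoxc10, a posterior Hox gene also used to mark subcutaneous fat, read 6.69 to 12.5 on the 8 arrays, and Tbx15 6.69 to 17.1.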

How the data were processed

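Total RNA of epididymal fat from 8 mice was hybridized to Affymetrix Mouse Genome 430 2.0 arrays, 1 array per mouse, and each sample's title gave its group. The deposited table holds 1 signal intensity per probe set on a linear scale, computed with GeneChip Analysis Suite software per the series' design text. For that software the version, the summary method and the scaling were not given in the sources used here, and no batch or scan date was stated. Its presence calls and comparison calls were not used. Trimmed means (2% trimmed) ran from 178 to 265 over the arrays, and every array was therefore multiplied to the same trimmed mean. A floor of 6.69, the 20th percentile of the scaled values, replaced lower signals, which were 18.6% to 22.4% of an array, and log2 was taken.

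Of the 45101 probe sets, 64 are array controls, 9160 are not in the probe annotation, 34958 have 1 gene symbol and 932 have several. The current gene table held the gene identifiers of 34754 and changed 0 symbols. The fit used the 22519 non-control probe sets whose mean log2 signal reached the 50th percentile.

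limma 3.58.1 in R 4.3.3 fitted 4 group means with an intensity trend in the variance (4 residual degrees of freedom). Tests were two-sided, with Benjamini-Hochberg adjustment over all 22519 probe sets and a call at 0.05; intervals are 95% confidence intervals. With 2 arrays per group the precision is low: the median interval over all probe sets reached 0.50 to each side for HFD against chow, and an exact permutation test of 2 against 2 cannot go below 0.333. The p-values measure the spread between single mice. Alternatives were median centring, quantile normalization, log2(signal + 16) without a floor, a lower floor (5th percentile), a stricter filter (70th percentile) or none, 1 probe set per gene, no trend, robust moderation, only the 2 groups compared, the replicate number as a block, and each array left out.

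The named items are every Hox gene with a probe set past the filter, and in each other list the called genes, or up to 3 with the smallest p in HFD against chow where fewer than 3 were called. The 9 lists of regulators and depot genes and 8 lists of cell type markers, like the members, were chosen with earlier results of these data known. Lists are described by counts and medians, with no test of their own.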

Additional observations from a re-analysis of the deposited data

How the results depend on the processing

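All 17 tested Hox probe sets kept their direction in HFD against chow under every setting run, except Hoxc6 1427361_at, which was at 0.0503 without HFD array 1 (−0.43 to 0.0503 with single arrays left out). The depth of an array design is its number of arrays, and with 2 per group the 95% intervals of the 17 reached 0.65 to each side in the median for drug against HFD. The number of Hox probe sets called in HFD against chow, 0 as reported, was 1 with quantile normalization, median centring or 1 probe set per gene (Hoxd9 each time), 3 with only the 2 groups compared, and 0 to 4 with single arrays left out, all lower; with no filter it was 1, a dim Hoxa3 probe set that was higher, and 0 were lower. For telmisartan against chow the count of 2 (Hoxc4 and Hoxb2) became 1 with median centring (Hoxa5 1448926_at, not one of the 2), no filter or no intensity trend (Hoxb2 in both), 0 with only the 2 groups compared, and 0 to 6 with arrays left out. For candesartan against chow it was 0 to 2, and for telmisartan against HFD 0 to 1, with arrays left out.

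Each count of calls is to be read against the share of all probe sets called in the same fit. For HFD against chow it was 4.88% in the main fit, 6.22% with quantile normalization and 3.54% with median centring. It was 8.09% with 1 probe set per gene, 8.38% with the 2 groups alone and 0.280% with no filter. For telmisartan against chow it was 5.78% in the main fit and 4.80% with median centring. It was 0.611% with no filter, 3.70% with no intensity trend and 0.511% with the 2 groups alone. The median over the members with no filter (all 48 members) was −0.21 for HFD against chow and −0.46 for telmisartan against chow. With the filter at the 70th percentile it was −0.57 for telmisartan against chow, where 8 members remain. For telmisartan against HFD the median turned from −0.14 to 0.13 with median centring, which moved the median of all probe sets to 0.21. With single arrays left out, the medians ranged from −0.71 to −0.54 for HFD, −0.78 to −0.47 for telmisartan and −0.75 to −0.40 for candesartan, each against chow. Against HFD they ranged from −0.35 to 0.18 for telmisartan and −0.17 to 0.29 for candesartan, and between the drugs from −0.30 to 0.20, so no direction is given for the drug comparisons.

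Other single values that changed sign were small: Hoxa5 1448926_at in candesartan against HFD (0.0156 with median centring), Hoxc6 1427361_at in telmisartan against chow (0.12 with median centring, 0.058 without chow array 1) and candesartan against chow (−0.74 to 0.0035 with arrays left out), Hoxd8 1433638_s_at in telmisartan against chow (−0.66 to 0.0031), and Hoxb4 in candesartan against chow (−0.70 to 0.0274). Their cause was not tested. Of 310 values of single Hox probe sets in HFD against chow, 293 stayed on their side of the threshold and 16 passed it.

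The labels number the mice of each group, but no source pairs them. Deviations of same-numbered arrays correlated at 0.00383 to 0.225 between groups, so the number was not treated as a pairing. With the replicate block, 2 Hox probe sets were called lower in HFD against chow (Hoxd9 and Hoxc5 1439885_at), and 3 in telmisartan against chow. In the same fits 7.42% and 7.83% of all probe sets were called.

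Over all probe sets, the 1099 calls of HFD against chow ranged from 126 to 2426 with arrays left out and from 126 to 1887 under the other settings. For telmisartan against chow 1301 calls ranged from 484 to 2694 and from 115 to 1764, and for candesartan against chow 891 calls ranged from 100 to 1991 and from 126 to 1242. Against HFD, telmisartan had 0 calls as reported and up to 1515 with 1 array left out.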
